A study of Mus musculus with 2 samples.

Results

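The nuclear pore proteins and the carriers that move cargo through the pore were followed in CD4+ T cells of the mouse, lymphocytes that help other immune cells, after stimulation through their antigen receptor. The set holds every protein-coding gene whose symbol starts with Nup and a digit, or with Ipo, Kpn, Xpo or Tnpo. This rule found 44 of the 21717 annotated protein-coding genes, 21 of them pore proteins and 23 carriers. The rule itself used no measured value, but the set was chosen with earlier results of these data known.

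The stimulated group was 1 library of splenic CD4+ T cells kept for 4 h on plates coated with anti-CD3e, which engages the antigen receptor, and with anti-CD28, which engages a receptor for the second signal of activation, at 2 ug/ml of each antibody. The mock group was 1 library of cells kept for 4 h without either antibody. All cells came from male C57BL/6JJcl mice, and the labels describe purification from 4 pooled spleens with a BD IMag magnetic enrichment kit. The age of the mice is not given in the sources used here. Total RNA was sequenced, with insert sizes of 199.014 bp in the stimulated library and 211.79 bp in the mock library.

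The measurement is the number of reads that cross a splice junction, summed over the junctions of a gene. The stimulated library holds 1341197 such reads and the mock library 1147232, and values are given as reads or per 1000000 junction reads of the library. With 1 library per group there is no replicate check and no p-value. Each ratio, stimulated over mock, stands with its exact 95% interval, which covers counting error only. Genes were called higher or lower where the libraries together held 20 reads or more, the ratio was at least 2 or at most 0.5, and 1 lay outside the interval. In RNA from bulk cells, fewer cells of a type and less RNA per cell cannot be told apart.

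The 8 CD4 T cell markers looked for (Cd3d, Cd3e, Cd3g, Cd4, Cd5, Cd28, Lck, Trac) all had junction reads, 6981 in the stimulated and 5352 in the mock library. The sum is carried by Trac, Cd5 and Lck, while the other 5 had ratios below 1, and Cd4 itself was lower (285 stimulated and 650 mock reads, 0.375). The median log2 ratio of the 8 markers was -0.43. Reads on markers of other cells were few, with 142 stimulated and 166 mock reads over 6 of 6 B cell genes, 21 and 42 over 5 of 6 myeloid genes, 5 and 16 on Cd8b1, and 2 and 0 on Klrk1. No junction was named for Cd8a, Cd14, Ncr1 and Klrb1c. The part of these cells in the results was not tested. Of 7 genes known to mark activation or rest, Il2, Il2ra, Cd69 and Myc were higher in the stimulated library, and Il7r, Klf2 and Tcf7 were lower.

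The nuclear pore is a large protein channel through the nuclear envelope, built from stacked scaffold rings around a central channel filled with flexible phenylalanine-glycine repeats. Small molecules diffuse through it, whereas most proteins and some RNAs cross bound to carriers of the importin beta family. These carriers read the state of the small GTPase Ran. Importins release cargo where Ran carries GTP, in the nucleus, and exportins bind cargo there. Importin alpha proteins are adaptors that link cargo with a classical import signal to importin beta, the product of Kpnb1. In T cells, transcription factors such as NFAT and NF-kappaB must pass the pore before they act on genes.

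Reads were named for 40 of the 44 genes, and 38 had at least 20 reads. Nup210l, with 0 stimulated and 10 mock reads, and Nup35, with 6 stimulated and 9 mock reads on 2 of its 8 introns, fell under this minimum. No junction was named for Kpna2, Kpna7, Nup62 and Nup62cl, so these genes have no value here. Over the 40 genes the stimulated library had 14491 reads and the mock library 8685, which is 1.08% and 0.757% of all junction reads. The summed value was 1.43 times as high in the stimulated library.

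Among the 38 measured genes, 11 were higher, 1 was lower and 26 passed neither threshold. Over the 7197 genes measured in these libraries, 17.0% were called higher and 25.1% lower. The interval lay above 1 for 25 of the 38 genes and below 1 for 4, beside 27.0% and 38.2% of all genes. The median log2 ratio was 0.77 over the 38 genes and -0.21 over all 7197. Values above 0 were found for 28 of the 38, beside 43.1% of all genes. The genes called higher were Ipo4, Ipo5, Xpot, Nup43, Nup54, Nup37, Ipo11, Kpna1, Ipo7, Kpnb1 and Nup188, and the gene called lower was Xpo1. Scaled by the median of gene ratios instead of by the total, which raises every log2 ratio by about 0.22 and puts the median of all genes at 0.0057, 18 of the 38 were called higher and 0 lower. The shares of all genes called under this scaling were not counted, and 17.0% and 25.1% belong to scaling by the total.

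**Figure D1:**
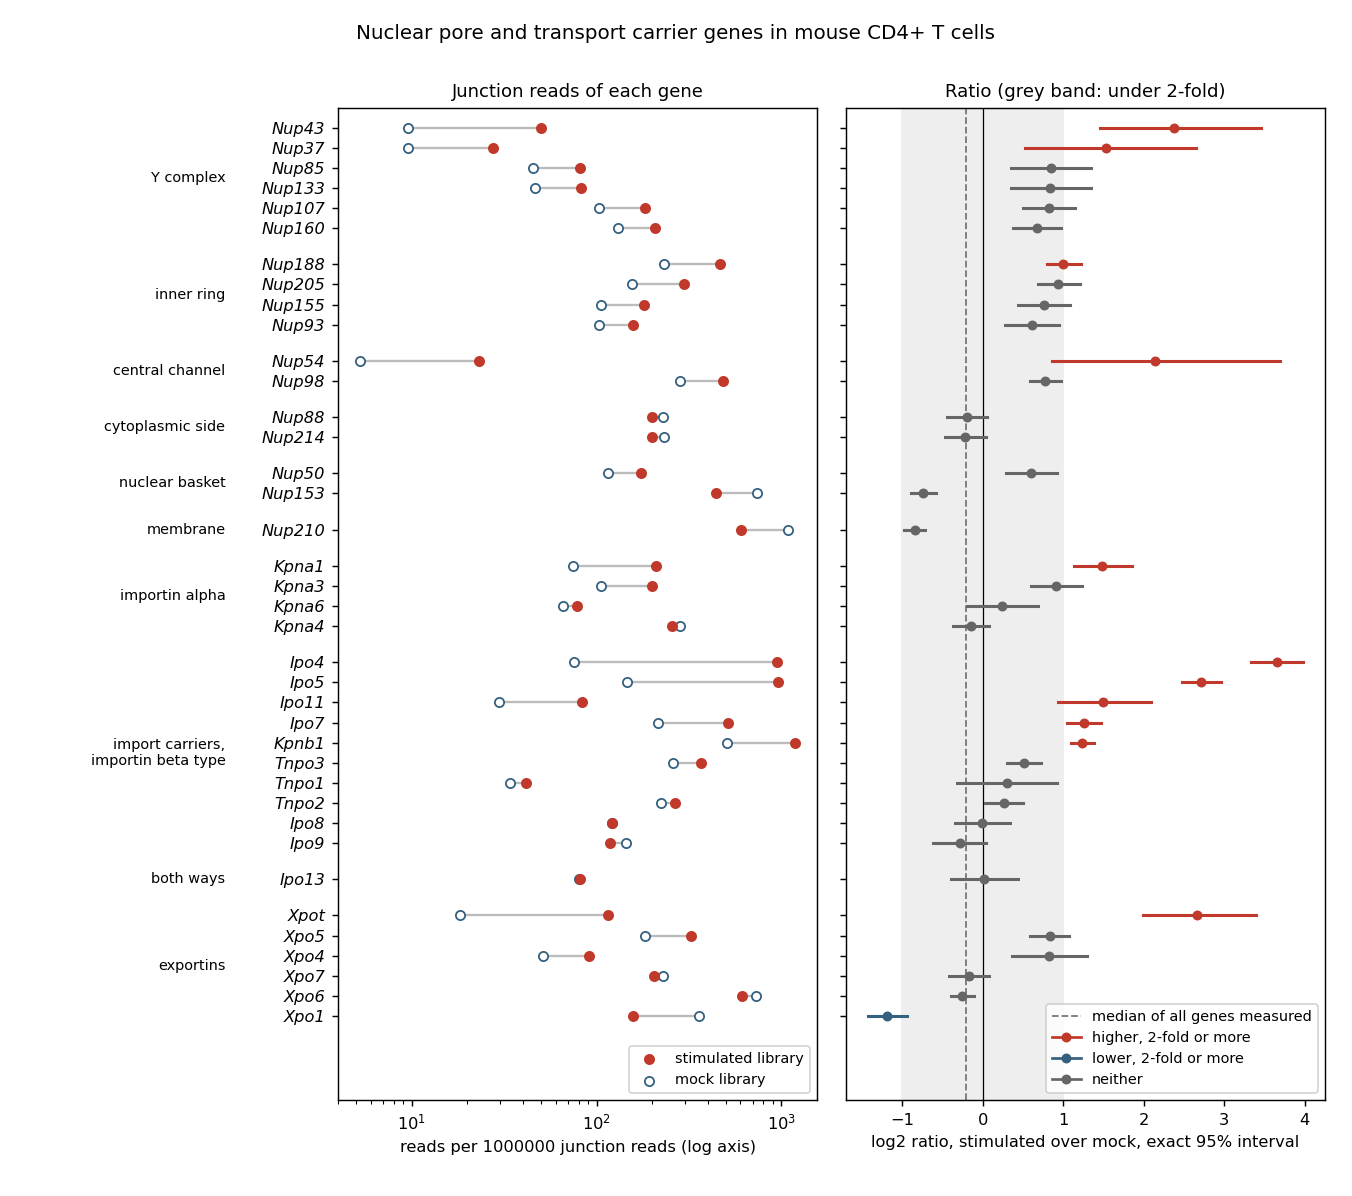
Junction reads per 1000000 (log axis, left) and the log2 ratio of the stimulated over the mock library with its exact 95% interval (right) for the 38 measured genes, grouped by role; red points are the 11 genes called higher, the blue point with an interval is Xpo1, called lower, and the dashed line is the median of all 7197 genes, -0.21. The Y complex and inner ring genes sit close together between 0.61 for Nup93 and 0.94 for Nup205, with Nup188 just above and Nup43 and Nup37 well above, whereas the import carriers spread between -0.29 for Ipo9 and 3.65 for Ipo4.

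For the carriers with the largest ratios, for the main importin beta and for the gene called lower, the most-read coding junction of the gene is shown as it appears in the spliced RNA. Each line gives the last 30 bases of the upstream exon in lower case and the first 30 bases of the downstream exon in capitals, 5′ to 3′ on the strand of the gene, from GENCODE M21 transcripts. The removed introns lie in mm9 at chr14:56246282-56246371 (minus strand, intron 27 of 29) for Ipo4, chr14:121321451-121322261 (plus strand, intron 4 of 25) for Ipo5, chr10:121039477-121040084 (minus strand, intron 18 of 24) for Xpot, chr11:97043140-97046240 (minus strand, intron 3 of 21) for Kpnb1 and chr11:23185220-23185800 (plus strand, intron 17 of 25) for Xpo1.
Ipo4: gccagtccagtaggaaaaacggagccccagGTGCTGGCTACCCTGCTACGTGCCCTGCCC
Ipo5: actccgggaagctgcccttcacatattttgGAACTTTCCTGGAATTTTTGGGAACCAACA
Xpot: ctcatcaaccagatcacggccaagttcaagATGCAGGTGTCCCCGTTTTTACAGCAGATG
Kpnb1: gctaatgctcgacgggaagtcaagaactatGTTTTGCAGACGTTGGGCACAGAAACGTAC
Xpo1: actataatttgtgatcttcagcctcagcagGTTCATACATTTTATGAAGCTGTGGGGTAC

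These joined sequences are what the reads counted here crossed. The Ipo4 junction had 99 stimulated and 8 mock reads, that of Ipo5 had 149 and 21, and that of Xpot had 52 and 9. For Kpnb1 195 stimulated and 65 mock reads crossed it. The Xpo1 junction had 19 stimulated and 34 mock reads, so this exon pair was read less in the stimulated library also before scaling to depth.

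The Y complex is the outer scaffold of the pore, and all 6 of its genes in the set had intervals above 1. Nup43 had 67 stimulated reads and 11 mock reads, or 49.96 and 9.59 per 1000000, a ratio of 5.21 (2.73 to 10.9). Nup37 had 37 stimulated and 11 mock reads, a ratio of 2.88 (1.44 to 6.25). Its most-read junction had 8 reads in each library, and with junctions seen in both libraries alone the log2 ratio was 0.56 and the call was lost, against 1.52 over all junctions. Nup43 and Nup37 are small beta-propeller proteins bound to the larger subunits, and within the set they were the genes of this complex called higher. Sec13, a subunit whose symbol falls outside the rule, was called higher as well (2.64, 1.97 to 3.58). The named junctions of Nup43 and Nup37 span chr10:7387480-7398365 and chr10:87609818-87640878 in mm9. The 4 larger subunits in the set lay within a narrow range. The ratios were 1.79 for Nup85 (109 stimulated and 52 mock reads), 1.79 for Nup133 (111 and 53), 1.77 for Nup107 (246 and 119) and 1.59 for Nup160 (279 and 150). Their intervals overlapped, with 1.28 to 2.55 for Nup85 and 1.42 to 2.22 for Nup107. The median log2 ratio of the 6 genes was 0.84. Taken from its most-read junction alone, the log2 ratio of Nup160 was -0.13, so its direction depends on which junctions are counted.

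The inner ring anchors the pore in the membrane and holds the central channel. Nup188, a large scaffold protein, had 623 stimulated reads and 266 mock reads, or 465 and 232 per 1000000, and its ratio of 2.003 (1.73 to 2.32) put it on the threshold. Without its most-read junction the log2 ratio was 0.96 and the call was lost. Its named junctions span chr2:30141991-30199221 in mm9. Nup205, its structural relative, had 399 stimulated and 178 mock reads and a ratio of 1.92 (1.60 to 2.30), just short of the threshold. The call thus separates a pair of genes whose intervals overlap over most of their width. Nup155, which contacts the membrane, had 241 stimulated and 122 mock reads (1.69, 1.35 to 2.12). Nup93, the linker of the ring, had 211 stimulated and 118 mock reads (1.53, 1.22 to 1.93). Apart from Nup35, which had too few reads, all 4 genes of the ring had intervals above 1, with a median log2 ratio of 0.85. From the most-read junction alone, the log2 ratios of Nup155 (-0.64) and Nup93 (-0.74) turned below 0, and that of Nup205 was 3.28.

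In the central channel, Nup54 is a component of the trimer that fills it with repeats. It had 31 stimulated and 6 mock reads, the fewest of the measured genes, and a ratio of 4.42 (1.82 to 13.0). With 6 mock reads the depth fixes this value only loosely. The named junctions of Nup54 span chr5:92845365-92864029 in mm9. Nup98, a repeat protein that also binds RNA export factors, had 648 stimulated and 323 mock reads, or 483 and 282 per 1000000. Its ratio was 1.72 (1.499 to 1.97), short of 2.

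The peripheral structures and the membrane ring gave a mixed picture. On the cytoplasmic side, Nup214 had 267 stimulated and 265 mock reads (0.862, 0.724 to 1.03) and its partner Nup88 had 267 and 262 (0.872, 0.732 to 1.04). These proteins form a platform for RNA leaving the pore, and both intervals held 1. Scaled by the median of gene ratios, their log2 ratios were 0.0049 for Nup214 and 0.02 for Nup88, so the sign is not fixed. In the nuclear basket, Nup153, which tethers basket to scaffold, had 594 stimulated and 848 mock reads, or 443 and 739 per 1000000. The ratio of Nup153 was 0.599 (0.539 to 0.666). Nup50, a small basket protein that helps to free importin alpha from cargo, had 234 stimulated and 132 mock reads (1.52, 1.22 to 1.89). The intervals of these 2 basket genes lay on opposite sides of 1.

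Nup210 encodes a membrane-spanning pore protein that is known in mice to be needed by CD4+ T cells. It had 807 stimulated and 1240 mock reads, or 602 and 1081 per 1000000. The ratio was 0.557 (0.509 to 0.609), below 1 but not past the threshold. From its most-read junction alone, Nup210 was called lower (log2 ratio -1.29). All 34 of its junctions with at least 10 reads had a log2 ratio under 0, between -2.81 and -0.07, so the value did not rest on a single stretch of the transcript. Over the 17 measured pore proteins, 4 were called higher (23.5%, beside 17.0% of all genes) and 0 lower (beside 25.1%). The intervals of 13 lay above 1, and those of Nup153 and Nup210 below 1. The summed ratio of the 19 pore proteins with reads was 1.06 (1.02 to 1.11).

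Among the importin alpha genes, Kpna1 was called higher. It had 281 stimulated and 86 mock reads, or 210 and 74.96 per 1000000, a ratio of 2.79 (2.19 to 3.60), and all 10 of its junctions with at least 10 reads were above 0. Its close relative Kpna6 had 105 stimulated and 76 mock reads, a ratio of 1.18 (0.871 to 1.61). The intervals of this pair of adaptors did not overlap. In the other related pair, Kpna3 had 268 stimulated and 122 mock reads (1.88, 1.51 to 2.35), and Kpna4 had 343 and 324 (0.906, 0.776 to 1.06), again without overlap. Kpna4 was the most read of the 4 in either library. Per junction it had 16.0 stimulated and 17.7 mock reads per 1000000, whereas Kpna1 had 14.0 and 4.998 and Kpna3 had 13.3 and 7.09. The levels of Kpna1 and Kpna3 were thus near that of Kpna4 in the stimulated library and well below it in the mock library.

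The import carriers of the importin beta type held 5 of the 7 carriers called higher. These 5 are 50% of the 10 measured, beside 17.0% of all genes. Ipo4 carries histones and ribosomal proteins. It had 1276 stimulated reads and 87 mock reads, or 951 and 75.8 per 1000000, which is 12.5-fold higher (10.1 to 15.8). All 29 of its introns were found, and each of the 29 junctions was higher in the stimulated library, with log2 ratios from 1.73 to 6.08. At 9 of them the mock library had 0 reads, and the ratio there is against 3 reads. The named junctions of Ipo4 span chr14:56244879-56254366 in mm9.

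Ipo5, another carrier of ribosomal proteins and histones, had 1288 stimulated and 168 mock reads, or 960 and 146 per 1000000. Its named junctions span chr14:121310566-121345940 in mm9. The ratio was 6.56 (5.58 to 7.75), and all 23 junctions with at least 10 reads were above 0. Ipo7, which imports ribosomal proteins and forms a pair with importin beta for linker histone, had 689 stimulated and 247 mock reads (2.39, 2.06 to 2.77). Ipo8, the closest relative of Ipo7 and a partner of Argonaute proteins, had 162 stimulated and 139 mock reads, a ratio of 0.997 (0.790 to 1.26). The members of this pair thus differed by more than their intervals, with Ipo7 the higher.

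Kpnb1 encodes the importin beta that serves all importin alpha adaptors. It had 1598 stimulated and 580 mock reads, or 1191 and 506 per 1000000, the most stimulated reads of any gene in the set. Its ratio was 2.36 (2.14 to 2.60), and its 20 junctions with at least 10 reads ranged from 0.14 to 2.00 on the log2 scale. Ipo11, which imports ubiquitin-conjugating enzymes, had 112 stimulated and 34 mock reads, a ratio of 2.82 (1.90 to 4.27). From the most-read junction alone the log2 ratios were 0.80 for Kpnb1 and 0.67 for Ipo11, and both calls were lost.

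The other import carriers were not called. Tnpo3, the carrier of serine-arginine splicing factors, had 495 stimulated and 296 mock reads (1.43, 1.24 to 1.66). Tnpo2 had 357 and 255 (1.20, 1.02 to 1.41), and Tnpo1, its near relative that imports RNA-binding proteins, had 56 and 39 on 7 of its 23 introns (1.23, 0.802 to 1.90). Their intervals overlapped, unlike those of the importin alpha pairs and of Ipo7 and Ipo8. Ipo9, a carrier of core histones and actin, had 158 stimulated and 165 mock reads (0.819, 0.654 to 1.03). Ipo13, which carries different cargo in each direction, had 109 and 92 (1.01, 0.761 to 1.35).

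**Figure D2:**
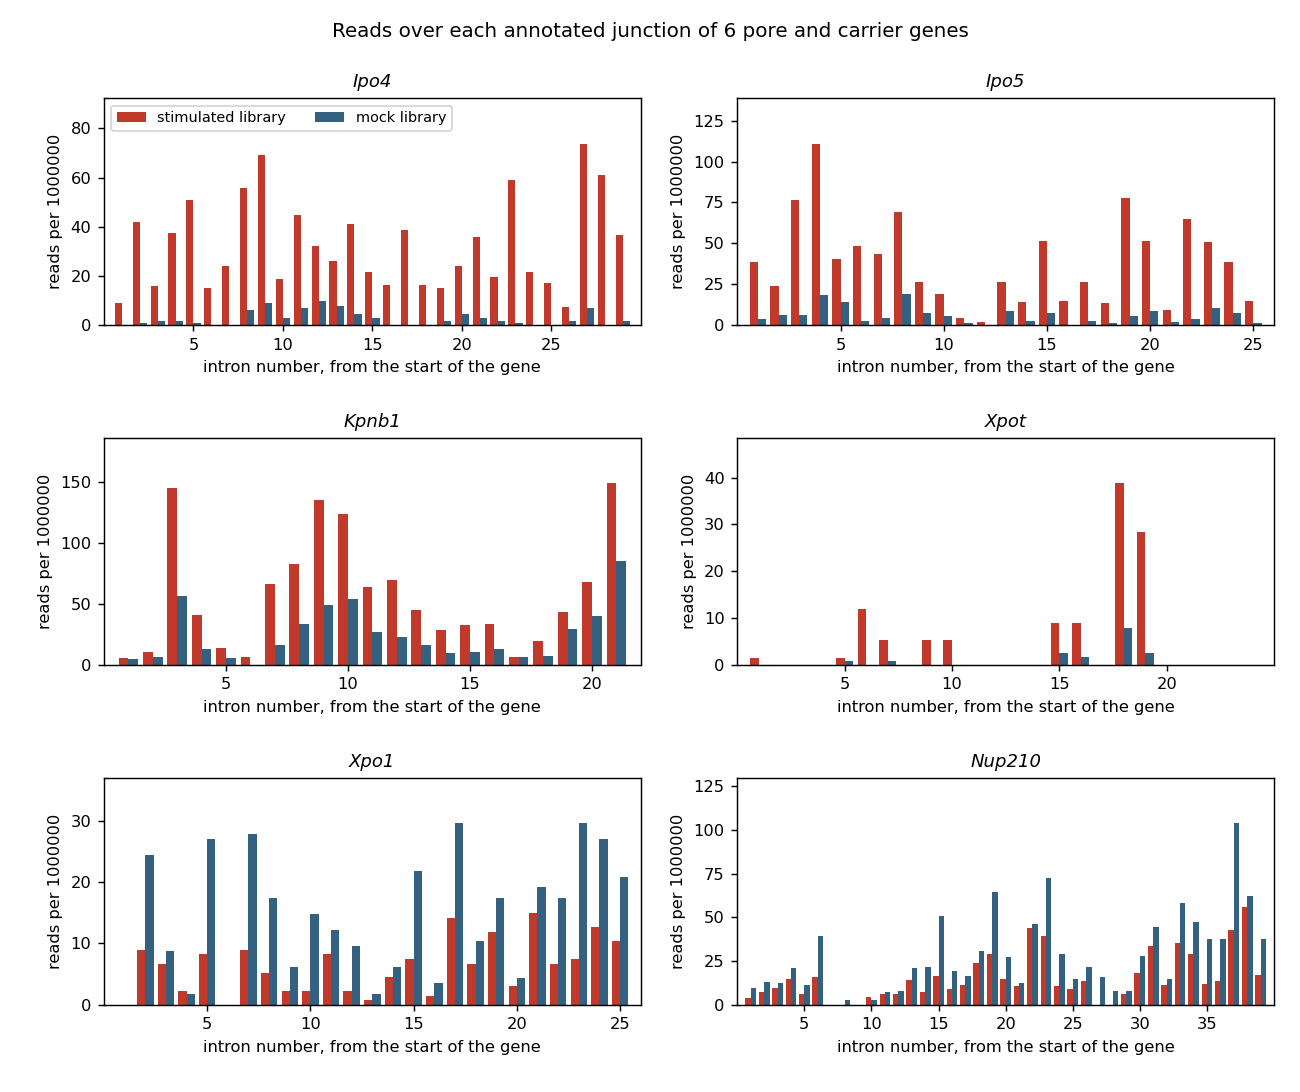
Reads per 1000000 over each annotated intron, numbered from the start of the gene, for Ipo4, Ipo5, Kpnb1, Xpot, Xpo1 and Nup210, with the stimulated library in red and the mock library in blue. The stimulated bars are the higher along the whole of Ipo4 and Ipo5, the mock bars are the higher along nearly all of Xpo1 and Nup210, and Xpot has reads on 10 of its 24 introns.

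Among the 6 exportins, 1 was higher and 1 was lower, or 16.7% each way, beside 17.0% and 25.1% of all genes. Xpot, the exportin for transfer RNA, had 155 stimulated and 21 mock reads, or 116 and 18.3 per 1000000, a ratio of 6.31 (3.99 to 10.5). Reads were found on 10 of the 24 introns and on 1 other annotated junction, and the 5 junctions with at least 10 reads ranged from 1.77 to 3.44. Xpo1, the general exportin for proteins with leucine-rich export signals, was the gene called lower. It had 212 stimulated reads and 412 mock reads, or 158 and 359 per 1000000, a ratio of 0.440 (0.371 to 0.521), which is 2.27-fold lower (1.92 to 2.69). All 19 junctions of Xpo1 with at least 10 reads were below 0, from -2.73 to -0.36. The call was lost where the libraries were scaled by the median of gene ratios (log2 ratio -0.96) or by the trimmed mean of M values (-0.94).

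Xpo5, the exportin for microRNA precursors, had 435 stimulated and 209 mock reads (1.78, 1.51 to 2.11). Xpo4, an exportin for translation and signalling proteins, had 122 and 59 (1.77, 1.29 to 2.46). Xpo6, the exportin for actin with profilin, was the most read exportin, with 818 stimulated and 835 mock reads, or 610 and 728 per 1000000, and a ratio of 0.838 (0.760 to 0.924). Xpo7 had 275 and 264 (0.891, 0.750 to 1.06), but from its most-read junction alone it was called lower (log2 ratio -1.16). The 6 exportins together had 2017 stimulated and 1800 mock reads, a summed ratio of 0.958 (0.899 to 1.02). The 10 import carriers had 6191 and 2010, a summed ratio of 2.63 (2.50 to 2.77). Such sums follow the most-read genes, here Xpo6 among the exportins and Kpnb1, Ipo5 and Ipo4 among the import carriers. Gene by gene, the median log2 ratio of the 6 exportins was 0.33, with 3 intervals above 1 and 2 below. That of the 10 import carriers was 0.88, with 7 intervals above 1 and 0 below.

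The make-up of the set therefore differed between the libraries. Import carriers took 42.7% of its reads in the stimulated library (exact 95% interval 41.9 to 43.5) and 23.1% in the mock library (22.3 to 24.0). Exportins took 13.9% in the stimulated and 20.7% in the mock library, and Nup210 alone 5.57% and 14.3%. Pore proteins as a class took 35.7% and 48.1%. The share of the importin alpha adaptors was 6.88% in the stimulated and 7.001% in the mock library. Since shares sum to a whole, a lower share need not mean fewer reads. The cytoplasmic side took 3.69% of the stimulated and 6.07% of the mock reads of the set, with 534 and 527 reads.

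**Figure D3:**
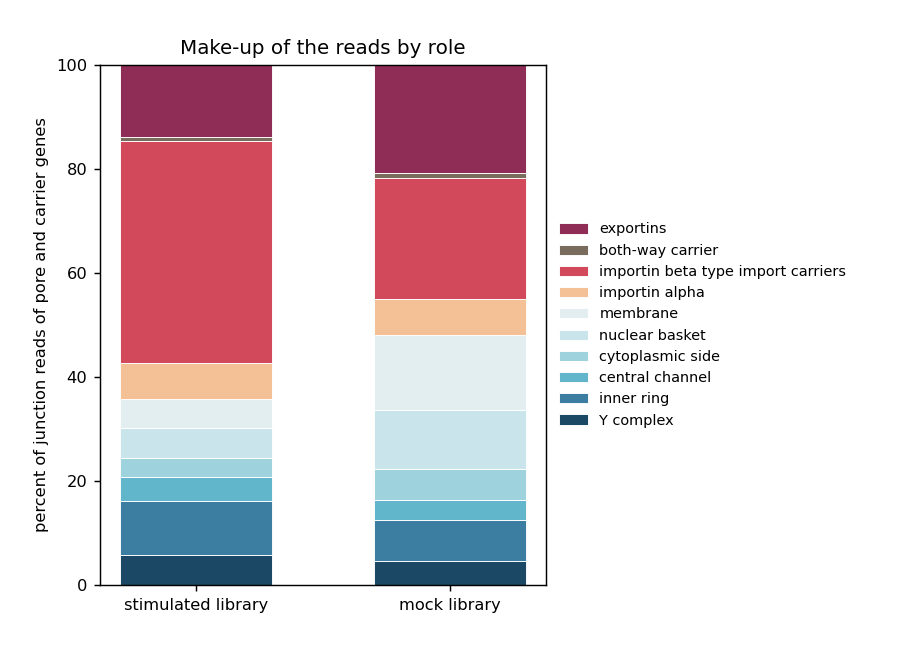
Percent of the junction reads of the whole set that each role group took, stacked to 100, in the stimulated library (left bar) and in the mock library (right bar), with no error drawn. The import carriers (red) fill 42.7% of the stimulated and 23.1% of the mock bar, and the membrane, basket, cytoplasmic and exportin groups have the lower share in the stimulated library.

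The order of the genes by reads per junction, the nearest to a level per length that these data allow, also differed. In the stimulated library Kpnb1 came first with 56.7 reads per 1000000 and junction, before Ipo5 with 36.9, Ipo4 with 31.7, Xpo6 with 23.5 and Ipo7 with 21.4. In the mock library Nup153 came first with 33.6, before Xpo6 with 28.0, Nup210 with 27.0, Kpnb1 with 24.1 and Kpna4 with 17.7. Ipo4 stood at place 3 of 38 in the stimulated and place 32 in the mock library, and Xpo1 at place 24 and place 6. Nup54 was the last in either library, with 3.30 and 0.747.

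**Figure D4:**
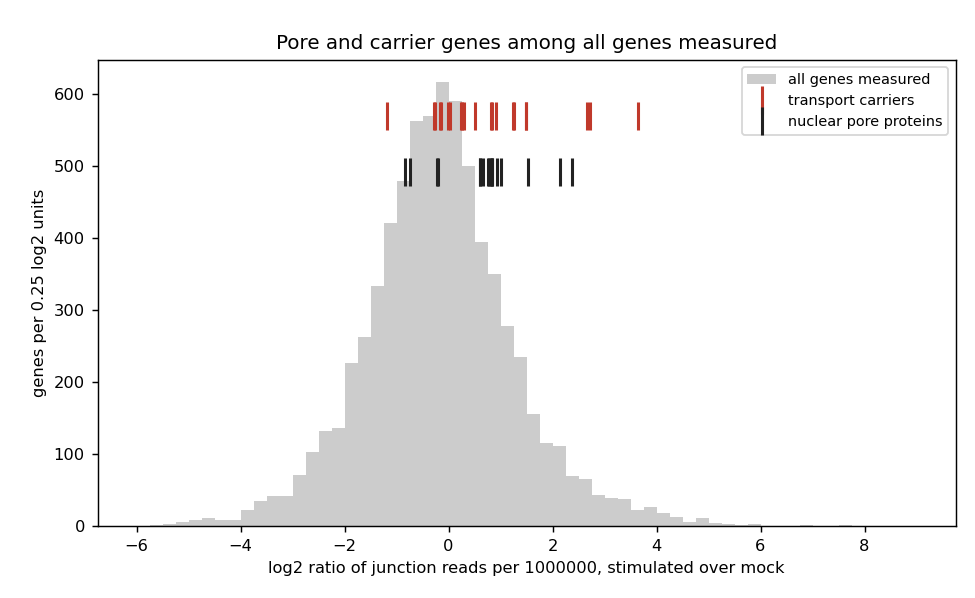
Distribution of the log2 ratio, stimulated over mock, over all 7197 measured genes, with the 38 pore and carrier genes marked. The median of the 38 is 0.77 and that of all genes is -0.21, and Ipo4 (3.65), Ipo5 (2.71) and Xpot (2.66) lie farthest to the right of the marked genes.

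The use of alternative splice sites within these genes was compared as well. A splice site used by more than 1 junction was compared where it had at least 20 reads in each library, and counted as shifted where a share differed by at least 20 percentage points with intervals apart. Of 32 such sites in 9 of the genes, 0 were shifted, beside 1.52% of the 4145 sites over all genes. So few sites cannot set these genes apart from that share. The largest difference was at a Nup210 donor, where the main junction took 100% of reads in the stimulated library (23 of 23) and 87.8% in the mock library (43 of 49). At a Nup153 donor a junction that matches no annotated intron took 5.71% of stimulated reads (2 of 35) and 16.7% of mock reads (6 of 36). In Ipo7, a pair of acceptors 3 bases apart was used, the main one by 89.8% of stimulated reads (88 of 98) and 94.6% of mock reads (35 of 37). None of these differences reached 20 percentage points, and the exact intervals of the shares overlapped. The differences themselves were not tested.

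Along the transcripts, the ratio over the introns nearer the 5′ end was set beside that nearer the 3′ end. The intervals overlapped in 37 of the 38 genes. The exception was Ipo4, with 674 stimulated and 62 mock reads on its 5′ introns (9.30, 7.16 to 12.3) and 593 and 25 on its 3′ introns (20.3, 13.6 to 31.6). Both portions were thus far above 1. These intervals cover counting error only, and junctions of a gene varied 2.01 times as much as counting allows. A difference in size between the portions was not tested against that spread. The count of Ipo4 also depends on the annotation. Where readthrough transcripts were kept, so that junctions shared with a readthrough gene were left out, 406 stimulated and 15 mock reads remained on 9 junctions, a ratio of 23.2.

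Promoter sequence was read for 35 of the 44 genes, from RefSeq windows of GRCm38.p6 that run from 250 bases before to 50 bases after the start. CACGTG, a palindrome known as the E-box and bound by Myc and its relatives, was found for 7 of the 35 genes, and the palindromic consensus site of the factor NRF1 for 4 (Nup62, Nup107, Nup50 and Xpo5). Over the 27025 genes of the table, 8.09% hold the E-box and 1.07% the NRF1 site, and over the measured genes with a window 12.7% and 2.785%. Both motifs read the same on either strand, and no match of the E-box overlaps a match of the NRF1 site in these genes. Of the 9 genes called higher that have a window, 5 hold the E-box (Ipo4, Ipo7, Xpot, Nup54 and Nup188), as do 2 of the 22 other measured genes (Tnpo2 and Nup93). Among all genes called higher, 17.1% hold it. A match is a description of the letters and not of a bound site.

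The stretches around the E-box upstream of the start are shown for the 4 called genes that have it there, because they carry these matches, with CACGTG in capitals, 60 bases each, 5′ to 3′ on the strand of the gene. They lie in GRCm38.p6 at chr2:30286356-30286415 (plus strand) for Nup188, chr5:92435267-92435326 (minus strand) for Nup54, chr7:110018151-110018210 (plus strand) for Ipo7 and chr10:121626523-121626582 (minus strand) for Xpot. The motif starts 24, 100, 137 and 231 bases before the start in that order, and Nup188 holds another at position -66, outside the stretch.
Nup188: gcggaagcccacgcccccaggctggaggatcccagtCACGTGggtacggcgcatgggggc
Nup54: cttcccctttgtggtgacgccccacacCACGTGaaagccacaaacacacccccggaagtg
Ipo7: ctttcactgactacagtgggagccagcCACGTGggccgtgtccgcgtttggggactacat
Xpot: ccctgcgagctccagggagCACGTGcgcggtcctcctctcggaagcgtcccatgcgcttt

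Other genes of the pore and of the Ran cycle were set beside the set. Of 13 pore proteins with other symbols 11 were measured, and among these Sec13, a Y complex subunit shared with vesicle coats, was higher (188 stimulated and 61 mock reads, 2.64, 1.97 to 3.58). Aaas was lower (55 and 112, 0.420, 0.298 to 0.585). This is 9.09% of the 11 in each direction, beside 17.0% higher and 25.1% lower over all genes. The median log2 ratio of the 11 was 0.74. Tpr, the main strand of the basket, had 2129 stimulated and 2236 mock reads (0.814), and Ranbp2, the protein of the cytoplasmic filaments, 792 and 406 (1.67). The membrane proteins Ndc1 and Pom121 had 99 stimulated and 50 mock reads (1.69, 1.19 to 2.43) and 291 and 159 (1.57, 1.29 to 1.91), on the other side of 1 from Nup210.

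Of 10 measured genes listed under the Ran cycle and other carriers, 5 were higher and 2 were lower (median log2 ratio 0.99, 15 genes listed). These are 50% and 20%, beside 17.0% and 25.1% of all genes. Ranbp9, Ranbp10 and Rcc2 are on this list by name, and a part of theirs in the Ran cycle was not tested. Ran itself had 372 stimulated and 92 mock reads (3.46, 2.75 to 4.39). Rcc1, which loads Ran with GTP on chromatin, had 103 and 8 (11.01, 5.38 to 26.2). Ranbp1 and Rangap1, which help Ran to hydrolyse GTP outside the nucleus, had 736 and 118 (5.34, 4.39 to 6.54) and 543 and 171 (2.72, 2.28 to 3.24). Rcc2, a relative of Rcc1 in sequence, had 1316 and 231 (4.87, 4.23 to 5.63). Ranbp10 was lower (43 stimulated and 406 mock reads, 0.0906, 0.0646 to 0.124), as was Ranbp9 (212 and 380, 0.477, 0.401 to 0.566). Cse1l, which returns importin alpha to the cytoplasm, had 699 and 413 (1.45), and Ranbp3, a cofactor of export, had 342 and 271 (1.08, 0.918 to 1.27).

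Of 17 measured genes of messenger RNA export, 5 were higher (Eny2, Ddx19a, Thoc6, Thoc1 and Ddx19b) and 2 were lower (Mcm3ap and Zc3h14). These are 29.4% and 11.8%, beside 17.0% and 25.1% of all genes. The median log2 ratio was 0.72 (24 genes listed). The ratios of the 5 ran from 2.06 for Ddx19b (113 stimulated and 47 mock reads) to 4.33 for Eny2 (86 and 17), and those of the 2 were 0.456 for Mcm3ap (127 and 238) and 0.443 for Zc3h14 (133 and 257). Nxf1, the main carrier of messenger RNA, had 1503 and 1362 (0.944).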

How the data were processed

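The files deposited by the authors list splice junctions of 1 stimulated and 1 mock library, with counts of reads per junction in the score column, used as deposited. The submitters' processing notes name TopHat, Cufflinks and mm9, with versions and filters not given in the sources used here. Reads within an exon are not counted, and a junction missed by the aligner lowers its gene.

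The annotation, GENCODE M21, is on GRCm38, so no coordinate was converted. A junction took a gene's name where chromosome, strand and intron length matched and at least 1 other junction of the same transcript lay at the same shift; readthrough transcripts were left out. Of 124183 junctions 95336 were named (76.8%), with 95.8% of stimulated and 95.6% of mock reads; 321 fitted more than 1 gene and were not used. For all 40 named pore and carrier genes the shift lay within 1000 bp of a neighbour's. Positions of junctions are in mm9, from 1.

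Ratios per 1000000 junction reads were computed for 7197 genes with at least 20 reads, with exact Clopper-Pearson 95% intervals; 0 reads were set against 3, which stand for 2.24 stimulated and 2.61 mock reads per 1000000. Reads are not independent molecules, so intervals and floors cover counting error only; junctions of a gene varied 2.01 times as much as counting allows. The text names every gene of the set, and of the related lists the called ones and a few chosen after their values were seen. The members and lists were chosen with earlier results of these data known. The naming was tested on simulated data. Python 3.11.15, pandas 2.3.3 and scipy 1.17.1 were used. The planned protein comparison of importin alpha genes was not run.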

Additional observations from a re-analysis of the deposited data

Results flagged for a closer look

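A junction of Nup98 that matches no annotated intron was seen in the stimulated library alone. It removes 12490 bp at chr7:109312337-109324826 (mm9) and had 8 stimulated and 0 mock reads. Against 3 mock reads the ratio is 2.28, and the lower limit of the exact 95% interval is 1.46. It was singled out among the unnamed junctions by a rule that asked for more than 3 stimulated reads and a lower limit above 1. The limit of 1.46 is thus part of the choice and adds no evidence. The rule looked only for junctions higher in the stimulated library. In the other direction, an unnamed junction of Nup210 (chr6:90990911-90992254, mm9) had 1 stimulated and 8 mock reads. Over all 140 unnamed junctions inside the measured genes there were 169 stimulated and 90 mock reads, with at most 12 on any of them.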

How the results depend on the processing

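No paired analysis was possible because each group is 1 library, and none could be left out. The counts of 11 genes higher and 1 lower became 18 and 0 with scaling by the median of gene ratios and 19 and 0 with the trimmed mean of M values, which shift every log2 ratio up by about 0.22 and 0.24 and put the median of all genes at 0.0057 and 0.027. With the most-read junction alone they were 12 and 3 (35 genes measured), where Nup210 (-1.29) and Xpo7 (-1.16) joined Xpo1 as lower. A minimum of 10 reads or none gave 11 and 2. A fold of 1.5 gave 23 and 3, and a fold of 4 gave 5 and 0. The other settings gave 8 to 11 higher and 1 lower, among them readthrough transcripts kept, a setting chosen after seeing the data. The median log2 ratio stayed between 0.58 and 1.01. The 12 called genes kept their direction in each of the 14 settings that gave them a value. A changed minimum, fold or interval leaves the ratio as it was, and scaling moved it by about 0.24 at most. The direction could therefore turn only in the settings that changed which junctions were counted or how they were combined. Nup54 has a value in 11 and Nup37 in 12, since too few reads remain with the most-read junction alone, with a minimum of 50 reads and, for Nup54, with junctions seen in both libraries. Of the 12, 7 kept the call wherever they had a value, the fold of 4 and the minimum of 50 reads aside. Xpo1 lost its call under both scalings. Nup188 lost it without its most-read junction (0.96), with junctions seen in both libraries (0.92) and with readthrough kept (0.98). Ipo11 (0.67) and Kpnb1 (0.80) lost it with the most-read junction alone. Under that setting Nup155, Nup93, Nup160, Tnpo2 (-0.38) and Ipo13 (-0.09), not called, turned below 0. Nup37 lost its call with junctions seen in both libraries (0.56) and with the median over junctions (0.74). In these settings Ipo13 was below 0 as well (-0.02 and -0.28). Shifted splice sites stayed at 0 in each alternative. Nup54, Nup37 and Nup43, with 6 to 11 mock reads, are limited by depth.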
